A study of Homo sapiens with 12 samples.

Results

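The mRNA of 10 receptor tyrosine kinases was followed in 2 small cell lung cancer lines with and without inhibition of the histone demethylase LSD1. The receptors were KIT, IGF1R, FGFR1, FGFR2, FGFR3, EGFR, ERBB2, ERBB3, MET and RET, taken by gene symbol from the 56508 symbols of the expression table. Of the 10, 8 passed the filter on low values, 1 or more in 3 or more of the 12 libraries, and were tested; EGFR and RET did not. H82 and H211 are established human lines, both labelled wild type, and each was treated with ORY-1001, an inhibitor of LSD1, at a dose of 1 µM or kept as a control. Each of the 4 groups (H82 control, H82 with ORY-1001, H211 control, H211 with ORY-1001) held 3 libraries. The controls are labelled PBS, and the treatment protocol calls them vehicle. The sample labels give 7 days of treatment and the protocol gives 10 days. Each background is represented by a single line, so differences between H82 and H211 are differences between these lines. Whether replicates were separate cultures is not in the labels, and p-values here reflect the spread among these libraries only, which may be technical.

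Receptor tyrosine kinases span the cell membrane, bind a growth factor outside the cell and phosphorylate themselves and their docking proteins inside it. The signal then passes through adaptors to the RAS-MAPK and PI3K-AKT pathways. KIT binds stem cell factor, encoded by KITLG, and small cell lung cancer is known for tumours that carry both. MET binds hepatocyte growth factor, RET works with a co-receptor for ligands of the GDNF family, and the FGF receptors bind fibroblast growth factors. ERBB2 has no known ligand of its own and pairs with ERBB3, which binds neuregulins but has little kinase activity.

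Values are the deposited TPM after rescaling between libraries, a level per transcript length, so levels of different genes can be set side by side. Group values are mean ± SD over 3 libraries. Without known depth there are no counting intervals, and an exact 0 is written as listed at 0. Log2 differences are of log2(value + 1), which understates changes of low genes, and folds are ratios of group means. A gene was called where limma's Benjamini-Hochberg adjusted p over 15456 tested genes was under 0.05. In bulk RNA, fewer cells of a type and less RNA per cell cannot be told apart. The lines differed in their cell type markers. The summed level of 8 neuroendocrine markers was 657.2 to 671.2 in H82 controls and 91.92 to 94.76 in H211 controls, and that of 8 tuft cell markers 22.24 to 28.7 and 1422 to 1437. These sums also moved with ORY-1001: the neuroendocrine sum was 459.4 to 464.6 in treated H82 and 107.8 to 112.4 in treated H211, and the tuft cell sum 20.54 to 23.17 and 1121 to 1158. In H211 the neuroendocrine rise was mostly NCAM1, with group means of 56.45 and 70.51. The tuft cell fall there was mostly AVIL (659.4 to 505.9) and BMX (227.3 to 123). ASCL2 (176.3 to 180.8) and GFI1B (13.48 to 24.8) were higher with the drug, and the other tuft cell markers were lower. CHAT was higher in H82 controls (14.92) than in H211 controls (6.413). The summed level of 7 fibroblast markers was 7.571 to 8.209 in H211 controls and 65.33 to 72.06 with ORY-1001, mostly DCN, at 3.915 to 4.422 and 61.45 to 68.05, and 2.063 to 4.372 in H82. The part of these shifts in the drug results below was not tested. The lines also held transcripts of blood cells at levels that differed within groups. The summed level of 12 myeloid markers was 1.502 to 2.412 in H82 controls, 32.32 to 42.56 in H82 with ORY-1001, 31.21, 158.7 and 3.425 in H211 control replicates 1 to 3, and 2.296, 3.273 and 38.98 in H211 with ORY-1001. The summed level of 9 erythroid markers was 62.27 to 78.72 in H82 controls and 3.319, 2.784 and 212.8 in treated H82 replicates 1 to 3. In H211 it was 57.63 to 196.5 in controls and 0.3903 to 64.78 with ORY-1001. Every myeloid sum of treated H82 thus lay above all its controls. The part of these transcripts in the results was not tested. A fit without 4 libraries that stand apart in them (H82 with ORY-1001 replicate 3, H211 control replicates 1 and 2, H211 with ORY-1001 replicate 3) is given where it changes a followed call. It leaves the H211 controls with 1 library, assumed to vary like the other groups. In H82 it leaves treated erythroid sums of 3.319 and 2.784, below all controls, and treated myeloid sums of 37.43 and 42.56, above all controls. By this fit, drug and blood transcripts cannot be told apart in H82. Alternatives were followed for the tested receptors, KITLG and the called list genes chosen by smallest p. Other results, among them those of FGFR4, MYB and SPRY1 in H211, were not followed.

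KIT mRNA was abundant in H211 and close to 0 in H82. Its H211 control libraries stood at 16.57, 17.61 and 17.01 and its H211 libraries with ORY-1001 at 11.74, 10.57 and 12.34. In H82 the controls stood at 0.153, 0.133 and 0.199 and the treated libraries at 0.184, 0.223 and 0.207. All treated H211 libraries lay below all H211 controls, and the H82 groups overlapped. KIT was 106-fold higher in H211 than in H82 controls (log2 difference 3.96, SE 0.079, adjusted p = 1.89e-12), a ratio that rests on H82 levels under 1. In H211 it fell with ORY-1001 from 17.1 ± 0.521 to 11.6 ± 0.899, to 0.677 of the control level (log2 difference -0.53, SE 0.079, adjusted p = 0.00089). In H82 the log2 difference was 0.05, with a 95% interval from -0.12 to 0.23 (adjusted p = 0.643). The drug effects in the lines differed by -0.58 on the log2 scale (H211 minus H82, SE 0.112, adjusted p = 0.00247), and KIT was the only one of the 8 tested receptors for which this difference was called. Over all tested genes 32.1% were called in that comparison, and 14.3% of all tested genes in the direction of KIT. KIT passed the filter through its H211 libraries alone. At the H82 levels of 0.223 or less, log2(value + 1) leaves little room for a fall. The difference between the drug effects therefore mostly restates the fall in H211, and cannot tell whether KIT in H82 responded in proportion. Without the 4 libraries the KIT fall in H211 was as large, at -0.57, but its adjusted p was 0.082.

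KIT is also a marker of mast cells and of blood progenitors, so their other markers are given beside it. The mast cell tryptase gene TPSB2 was listed at 0 in all 12 libraries, TPSAB1 was above 0 in H82 with ORY-1001 replicate 1 alone, at 0.075, and CPA3, MS4A2 and HDC did not exceed 0.0589, 0.0771 and 0.17. GATA2, a transcription factor of mast cells that other cells also use, accounted for most of the mast cell sum in H211, at 4.018, 5.191 and 4.421 in controls and 6.48, 6.517 and 6.822 with ORY-1001. Of 5 blood progenitor markers, CD34 stayed between 0.0167 and 0.0845, FLT3 did not exceed 0.11 and GATA1 did not exceed 1.089. The other two, MYB and PROM1, are not particular to blood and were abundant. MYB, a transcription factor, moved with KIT: its H211 controls stood at 54.74, 55.21 and 56.05 and its treated H211 libraries at 40.07, 40.77 and 40.75 (log2 difference -0.44, adjusted p = 0.000266), and H82 held 7.7 to 9.039. PROM1 stood at 107.1 to 120.1 in H82 controls, 83.48 to 92.36 in H82 with ORY-1001 and 8.951 to 12.53 in H211. The summed level of the 5 was 64.65 to 68.63 in H211 controls and 52.04 to 53.6 with ORY-1001; its part in the KIT result was not tested. In H211 control replicates 1 to 3, with KIT at 16.57, 17.61 and 17.01, the myeloid sums were 31.21, 158.7 and 3.425. The erythroid sums there were 196.5, 176.5 and 57.63. In treated H211 replicates 1 to 3, with KIT at 11.74, 10.57 and 12.34, the myeloid sums were 2.296, 3.273 and 38.98. The erythroid sums there were 64.78, 49.27 and 0.3903. The part of these transcripts in the KIT result was not tested.

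KITLG, the gene of the KIT ligand, stood beside its receptor in H211. Its H211 controls were at 21.19, 22.49 and 18.24 and the treated libraries at 8.649, 8.947 and 9.087. The H82 controls were at 0.963, 0.926 and 0.963 and the treated libraries at 1.219, 1.982 and 1.404. In neither line did treated and control libraries overlap, and the shifts ran in opposite directions. KITLG was 21.7-fold higher in H211 than in H82 controls (log2 difference 3.47, adjusted p = 6.48e-11). With ORY-1001 it fell 2.32-fold in H211 (log2 difference -1.12, SE 0.111, adjusted p = 4.36e-05) and rose 1.62-fold in H82 (0.37, SE 0.111, adjusted p = 0.0198). The difference between the drug effects was -1.49 (adjusted p = 5.05e-05). The H82 rise lost its call with a constant of 5 added before the logarithm (adjusted p = 0.116), with H82 fitted alone (0.076), without H82 control replicate 2 (0.0516), without H82 with ORY-1001 replicate 2 (0.0724) and without the 4 libraries (0.057). The H211 fall was called in every alternative.

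KIT and KITLG are a receptor and its own ligand, both abundant in H211 and both lower there with ORY-1001. KIT lies on chromosome 4 (54657918 to 54740715, plus strand, GENCODE 29 on GRCh38) and KITLG on chromosome 12 (88492793 to 88580851, minus strand). Their promoters are therefore shown, as 300 bases from 250 before to 50 after the RefSeq start, at chr4:54657707-54658006 and chr12:88580422-88580721 of GRCh38.p14. They are written 5′ to 3′ on the strand of the gene, and capitals mark GC boxes, GGGCGG on either strand.
KIT: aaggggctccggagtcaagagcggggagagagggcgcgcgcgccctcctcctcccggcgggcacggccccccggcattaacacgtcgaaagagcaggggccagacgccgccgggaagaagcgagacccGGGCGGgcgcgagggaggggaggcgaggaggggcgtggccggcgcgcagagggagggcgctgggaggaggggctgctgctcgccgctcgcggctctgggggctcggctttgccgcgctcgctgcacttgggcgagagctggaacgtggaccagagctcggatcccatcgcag
KITLG: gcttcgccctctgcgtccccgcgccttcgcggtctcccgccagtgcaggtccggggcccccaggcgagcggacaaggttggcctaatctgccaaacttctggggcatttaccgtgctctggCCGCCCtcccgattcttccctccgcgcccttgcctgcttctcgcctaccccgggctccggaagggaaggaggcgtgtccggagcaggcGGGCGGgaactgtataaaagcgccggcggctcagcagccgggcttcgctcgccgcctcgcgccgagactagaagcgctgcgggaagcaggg
The KIT window held 1 GC box and the KITLG window 2, against 45.0% of 35116 RefSeq promoters of this length with at least 1. Both windows were rich in G and C, at 74.3% and 69.7% of bases against a median of 58.7% over all promoters, with 38 and 34 CG pairs against a median of 14. An E-box, CANNTG, occurred once in KIT and not in KITLG, and was present in 68.7% of promoters. AP-1 (TGANTCA), octamer (ATGCAAAT) and AAATCA motifs, searched on both strands, were absent from both windows and present in 7.71%, 1.77% and 13.2% of promoters. Of the 10 receptors 8 had a promoter in the RefSeq table, and FGFR1 and ERBB3 did not match. These matches describe letters in the windows and not binding.

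**Figure D1:**
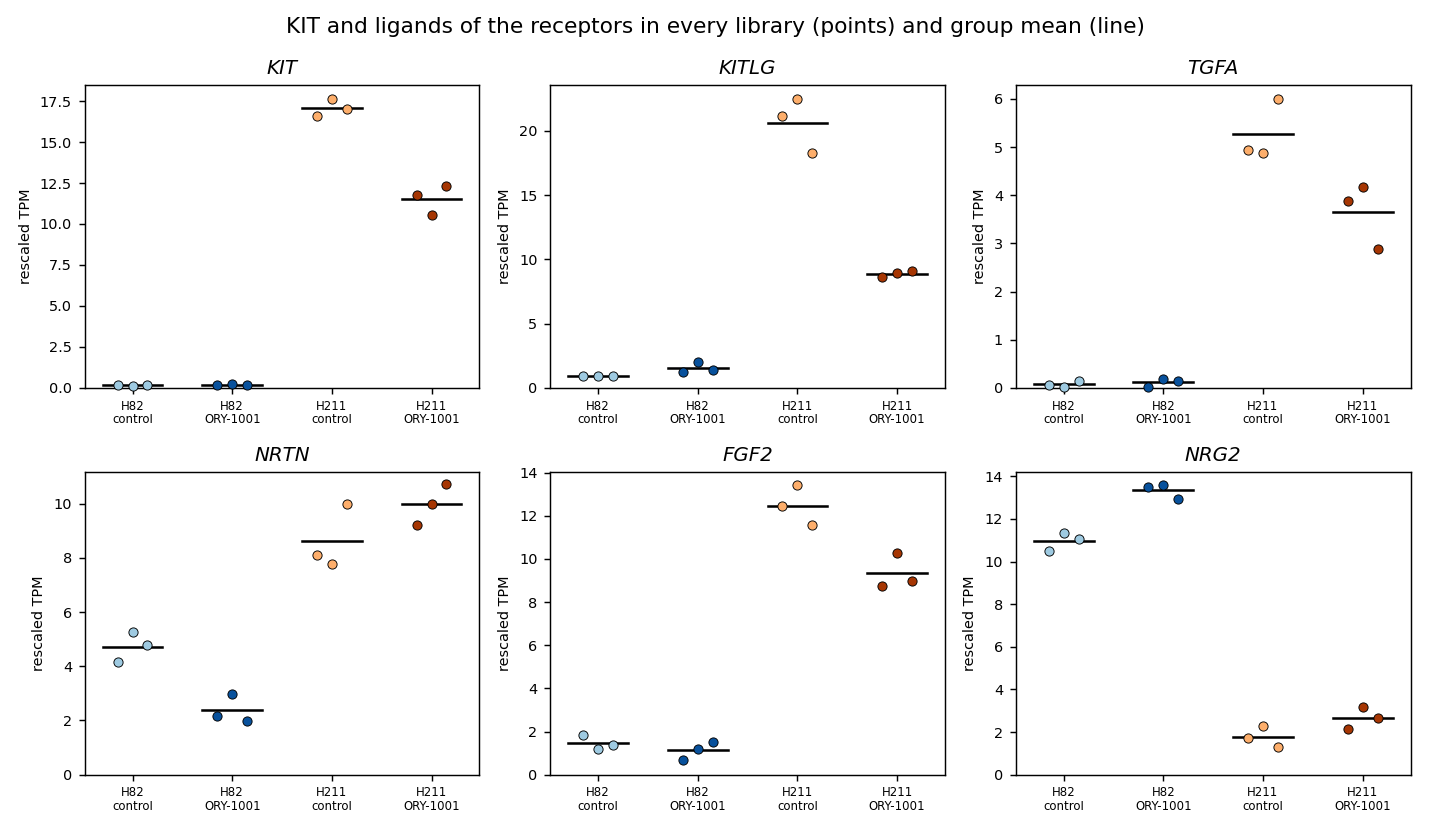
KIT and 5 growth factor genes, with the 4 groups on the x axis and rescaled TPM on the y axis; points are libraries and lines are means of 3. KIT and KITLG are high in H211 controls (16.57 to 17.61 and 18.24 to 22.49) and lower in every treated H211 library, whereas NRG2 is highest in H82.

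The FGF receptors were divided between the lines. FGFR2, on chromosome 10 (121478334 to 121598458), stood at 12.75, 13.24 and 10.49 in H82 controls and at 17.17, 18.63 and 15.6 with ORY-1001. In H211 it was at 1.235, 1.325 and 1.605 in controls and 1.436, 1.354 and 2.251 with the drug. The H82 groups did not overlap and the H211 groups did. FGFR2 was 8.76-fold higher in H82 than in H211 controls (adjusted p = 6.91e-09). It rose 1.41-fold with ORY-1001 in H82 (log2 difference 0.47, SE 0.134, adjusted p = 0.0156), a call lost without H82 control replicate 3 (0.0664) or H82 with ORY-1001 replicate 2 (0.0594). In H211 the log2 difference was 0.15, with an interval from -0.14 to 0.45, and the difference between the lines was not called (adjusted p = 0.241).

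FGFR1, on chromosome 8, had the opposite distribution and was lower with ORY-1001 in both lines. It stood at 10.18, 11.8 and 10.13 in H211 controls and 6.319, 8.113 and 6.37 with ORY-1001. In H82 it was at 0.931, 1.18 and 1.004 in controls and 0.452, 0.228 and 0.55 with the drug. Treated and control libraries overlapped in neither line. FGFR1 was 10.3-fold higher in H211 than in H82 controls (adjusted p = 2.11e-09). It fell 1.54-fold in H211 (log2 difference -0.57, SE 0.121, adjusted p = 0.00775) and 2.53-fold in H82 (-0.54, SE 0.121, adjusted p = 0.00398), the latter from a level near 1. FGFR1 passed the filter through its H211 libraries, since in H82 only control replicates 2 and 3 reached 1. With H82 fitted alone it was therefore not tested. The difference between the lines was -0.03, with an interval from -0.4 to 0.35. This value depended on the constant, at 0.58 with 0.1 and 0.17 with 0.5, neither of them called. The H211 call was lost with a constant of 0.1 (adjusted p = 0.0924) and without the 4 libraries (-0.45, 0.259), and the H82 call with a constant of 5 (0.0657). FGFR1 shares 138 exonic bases with LETM2, a mitochondrial protein gene on the other strand, and whether counting used strand is not known here, so their reads cannot be told apart there. LETM2 in H82 moved from 1.35 ± 0.0427 to 0.535 ± 0.0136 (adjusted p = 0.000278), and in H211 it stood at 1.64 ± 0.218 and 1.57 ± 0.175 (0.808).

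FGFR3, on chromosome 4 (1793293 to 1808872), was low in all groups. Its H211 controls stood at 0.708, 0.771 and 0.693 and its treated libraries at 1.867, 3.199 and 0.822, so that 1 treated library lay just above the controls and the others well above. The log2 difference in H211 was 0.70 (SE 0.23, adjusted p = 0.0564), which was not called. It was called without H211 with ORY-1001 replicate 3 (1.01, adjusted p = 0.00259) and with library weights (0.0349). Its H82 controls averaged 0.991 ± 0.15 and the treated libraries 0.93 ± 0.179 (adjusted p = 0.905). With ORY-1001, FGFR3 was 2.11-fold higher in H211 than in H82 (adjusted p = 0.0481), although the libraries overlapped, and this call was lost in 17 of 24 alternatives. FGFR4, an FGF receptor outside the 10, had the highest mean of the family, level with FGFR2 in H82 with ORY-1001, at 18.6 ± 1.93 and 17.2 ± 1.98 in H82 and 34.7 ± 0.168 and 27.1 ± 1.23 in H211. It fell in H211 (log2 difference -0.35, adjusted p = 0.0163).

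Of the ERBB family, ERBB3 was the most abundant in H211 and EGFR was near 0 everywhere. ERBB3, on chromosome 12 (56076799 to 56103505), stood at 37.92, 35.6 and 34.56 in H211 controls and at 28.04, 22.08 and 21.45 with ORY-1001. In H82 it was at 1.211, 1.579 and 0.899 in controls and 1.494, 0.651 and 0.744 with the drug. The H211 groups did not overlap and the H82 groups did. ERBB3 was 29.3-fold higher in H211 than in H82 controls (adjusted p = 4.58e-10). With ORY-1001 it fell 1.51-fold in H211 (log2 difference -0.58, SE 0.164, adjusted p = 0.0299). This call was lost in 9 of 26 alternatives, among them constants of 0.1 and 0.5 (adjusted p = 0.152 and 0.0677), any H211 control left out (0.0935, 0.0759 and 0.0545 for replicates 1, 2 and 3), H211 with ORY-1001 replicate 2 or 3 left out (0.0897 and 0.0975) and the fit without the 4 libraries (0.441). In H82 the log2 difference was -0.20 (adjusted p = 0.371), and the lines' effects were not called different (-0.39, 0.234).

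ERBB2, on chromosome 17 (39687914 to 39730426), was present in both lines. It stood at 8.939, 6.394 and 7.186 in H211 controls and 7.297, 8.519 and 9.916 with ORY-1001. In H82 it was at 3.08, 2.639 and 2.543 in controls and 3.28, 4.261 and 3.071 with the drug. Treated and control libraries overlapped in both lines, with log2 differences of 0.17 in H211 (interval -0.14 to 0.48, adjusted p = 0.45) and 0.27 in H82 (-0.04 to 0.58, 0.154). ERBB2 was 2.73-fold higher in H211 than in H82 controls (adjusted p = 9.5e-06). It shares 571 exonic bases with MIEN1 and 194 with PGAP3, both on the other strand, so these reads cannot be told apart either. MIEN1 was 4.72-fold higher in H211 controls, at 180 ± 7.21 against 38.2 ± 1.41, and PGAP3 1.97-fold. GRB7, an adaptor encoded beside ERBB2, was 51.5-fold higher in H211 controls, at 17.3 ± 2.23 against 0.336 ± 0.135.

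EGFR and RET were below the filter. EGFR, on chromosome 7 (55019021 to 55211628), reached 0.309 in H82 control replicate 1, 0.11 in H211 control replicate 2 and at most 0.0399 elsewhere, and was listed at 0 in 5 libraries. RET, on chromosome 10 (43077027 to 43130351), did not exceed 0.0118 in H82 controls, 0.129 in H82 with ORY-1001, 0.101 in H211 controls and 0.204 in H211 with ORY-1001. No fold is given for values this low.

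MET, on chromosome 7 (116672390 to 116798386), had the highest mean of the 10 in H211, with controls that overlapped those of ERBB3. Its H211 controls stood at 35.06, 40.51 and 35.92 and its treated libraries at 30.99, 31.18 and 30.62. In H82 it was at 0.379, 1.169 and 0.475 in controls and 0.331, 0.502 and 0.477 with ORY-1001. MET was 55.1-fold higher in H211 than in H82 controls (log2 difference 4.54, adjusted p = 5.66e-11). It passed the filter through its H211 libraries, since in H82 only control replicate 2 reached 1. The treated H211 libraries lay below all H211 controls, with a log2 difference of -0.25 (SE 0.143, interval -0.57 to 0.06) that was not called (adjusted p = 0.258). It was called with a constant of 5 (-0.23, adjusted p = 0.0238) and with H211 fitted alone (0.0299). In H82 the log2 difference was -0.19 (adjusted p = 0.315).

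IGF1R, on chromosome 15 (98648539 to 98964530), the receptor of the insulin-like growth factors, was the most abundant of the 10 in H82 controls. It stood at 18.33, 13.51 and 19.15 in H82 controls and 14.91, 17.71 and 14.87 with ORY-1001, and in H211 at 7.523, 6.763 and 5.615 and at 5.5, 7.905 and 4.923. Treated and control libraries overlapped in both lines. It was 2.56-fold higher in H82 than in H211 controls (log2 difference -1.23, adjusted p = 2.75e-05). The drug differences were -0.09 in H82 (interval -0.45 to 0.28, adjusted p = 0.729) and -0.12 in H211 (-0.49 to 0.25, 0.69). The related insulin receptor, INSR, was at 7.08 ± 0.27 in H82 controls and 0.151 ± 0.0836 in H211 controls.

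**Figure D2:**
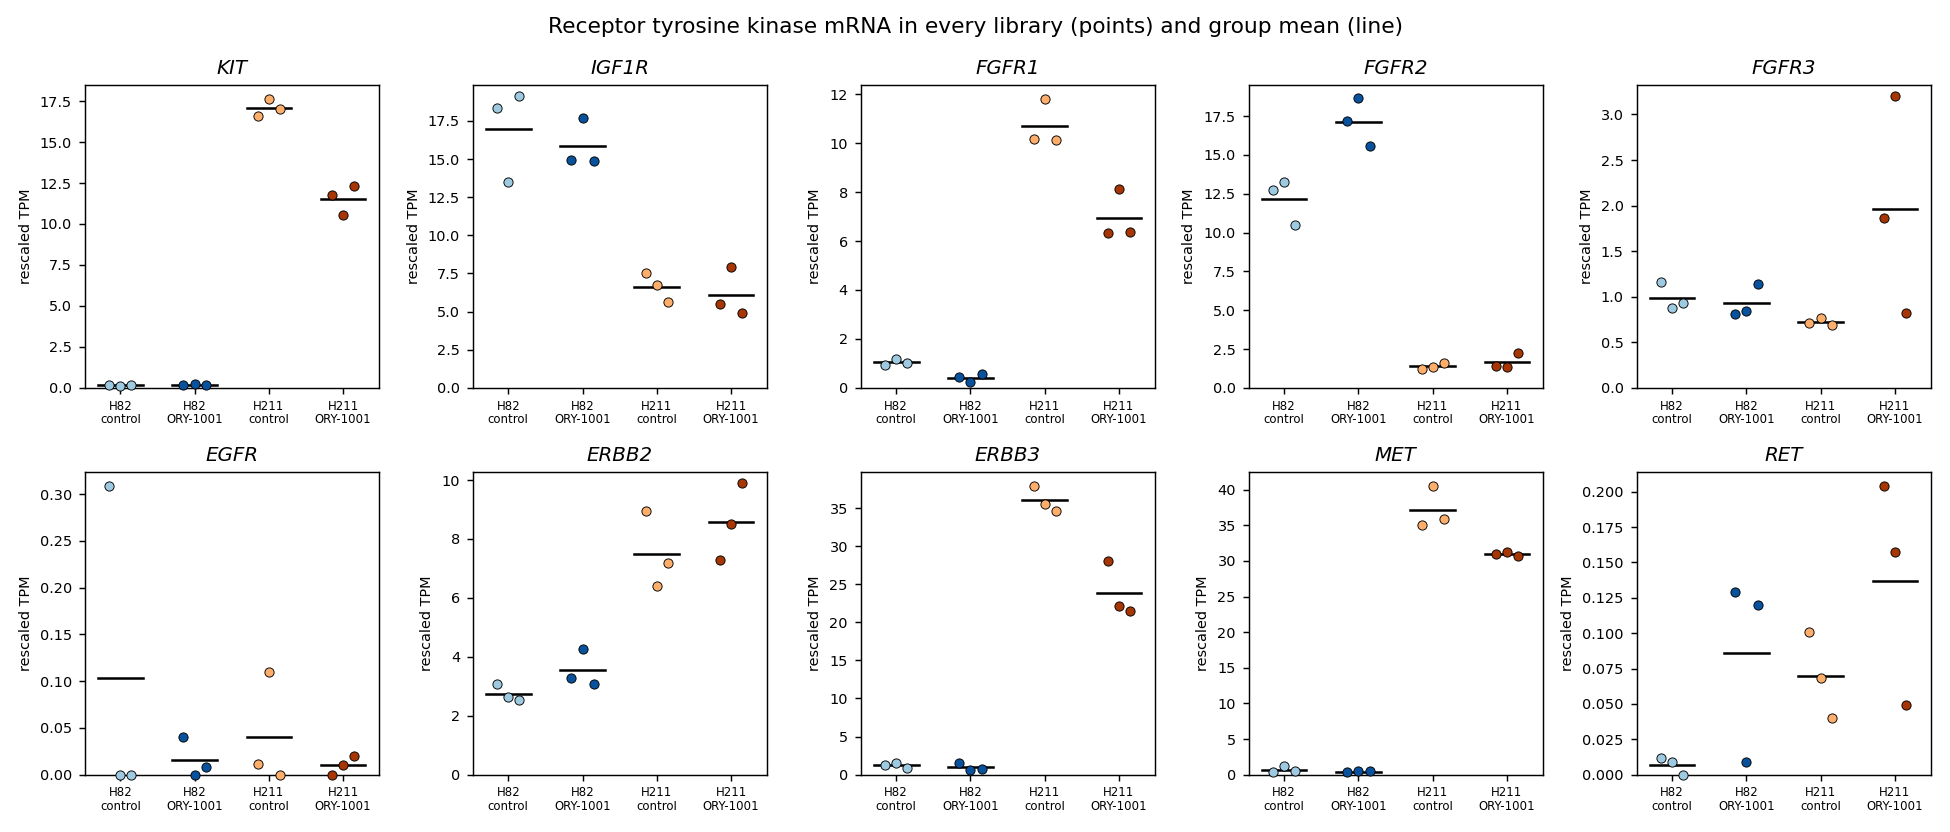
The 10 receptors, one panel each, with the 4 groups on the x axis and rescaled TPM on a y axis scaled to each panel; points are libraries and lines are means of 3. KIT, FGFR1, ERBB3 and MET are high in H211, FGFR2 and IGF1R in H82, and EGFR and RET stay at or below 0.309.

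Between the control cultures 7 of the 8 tested receptors differed, where 80.5% of all tested genes did (39.7% higher in H211, 40.8% lower). KIT, FGFR1, ERBB2, ERBB3 and MET were higher in H211, and IGF1R and FGFR2 in H82. FGFR3 was not called (log2 difference -0.20, adjusted p = 0.424). The median log2 difference of the 8 was 1.85, beside -0.02 over all tested genes. With ORY-1001 the same 7 differed in the same direction and FGFR3 was added, against 80.2% of all genes (39.7% higher in H211, 40.6% lower). KIT was then 56.5-fold, MET 70.8-fold and ERBB3 24.8-fold higher in H211, and FGFR2 10.2-fold higher in H82. By group mean the order of levels was H211 control above H211 with ORY-1001 above both H82 groups for KIT, FGFR1, ERBB3 and MET. Of these, MET was not called lower with ORY-1001 in H211 (adjusted p = 0.258).

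**Figure D3:**
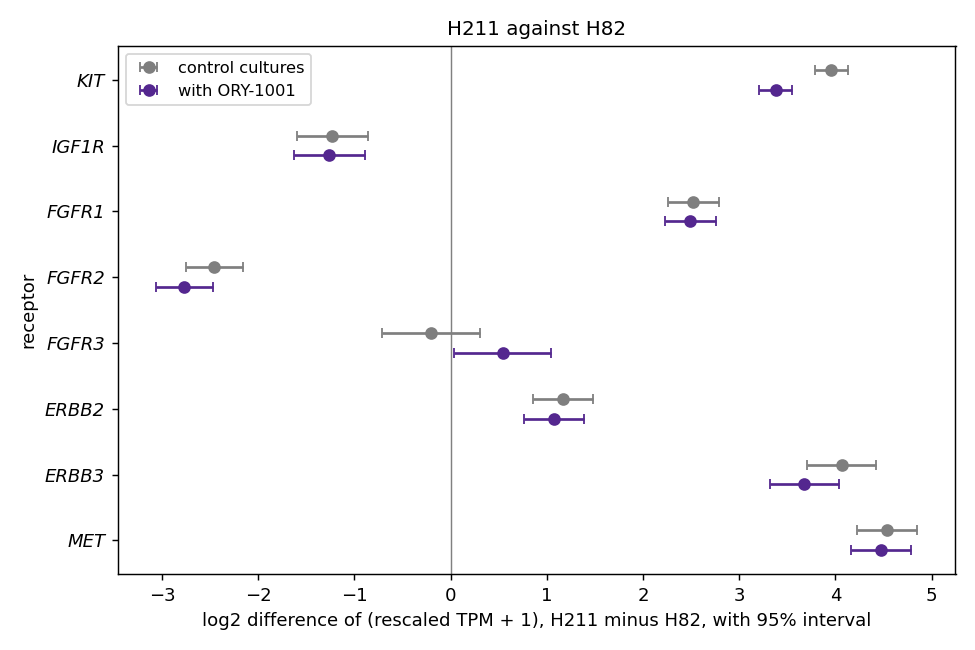
Log2 difference of (rescaled TPM + 1), H211 minus H82, on the x axis for the 8 tested receptors, in control cultures (grey) and with ORY-1001 (purple); points are estimates and bars 95% intervals. KIT, ERBB3 and MET lie between 3.38 and 4.54, FGFR2 and IGF1R lie below 0, and the FGFR3 control interval spans 0.

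With ORY-1001, 2 of the 8 tested receptors were called in H82, FGFR2 higher and FGFR1 lower, where 43.0% of all tested genes were called (19.1% higher, 23.9% lower). In H211, 3 of 8 were called, KIT, FGFR1 and ERBB3, all lower, where 18.6% of all genes were called (8.95% higher, 9.61% lower). The median log2 difference of the 8 was -0.07 in H82 and -0.19 in H211, beside -0.02 and -0.0021 over all tested genes. With counts this small, neither share is read as a property of the receptors. The drug comparisons share their control libraries with the comparison of the lines, and the receptors that were lower with ORY-1001 in H211 were among those higher in its controls. Without the 4 libraries limma called 0 of the 8 in H211 (2 at an unadjusted p under 0.05), and 559 genes in all.

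**Figure D4:**
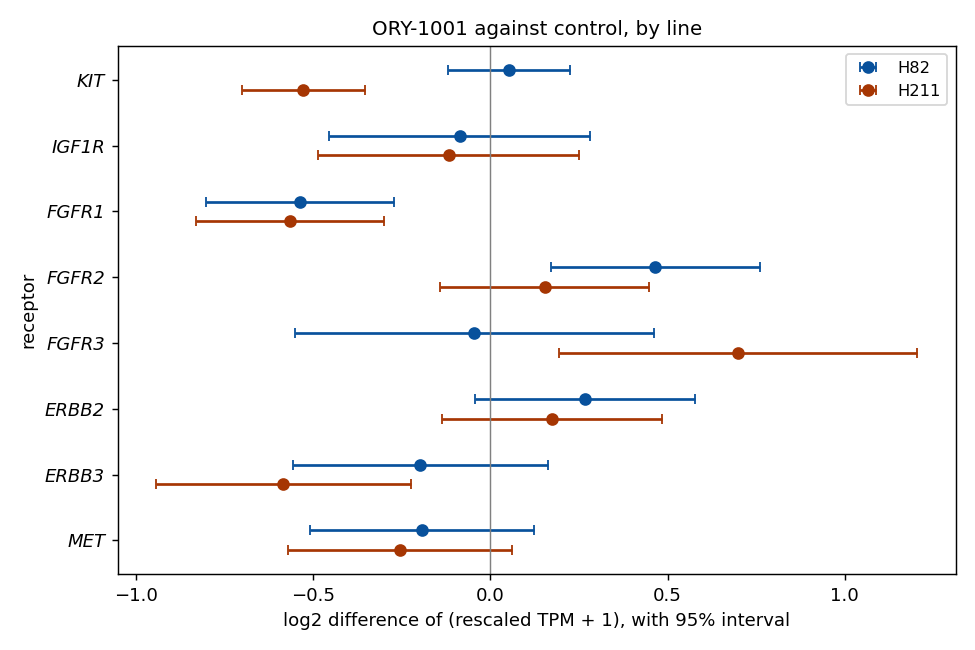
Log2 difference of (rescaled TPM + 1), ORY-1001 minus control, on the x axis for the 8 tested receptors in H82 (blue) and H211 (red-brown); points are estimates and bars 95% intervals. The KIT intervals of the lines do not overlap (-0.12 to 0.23 in H82, -0.7 to -0.35 in H211), and FGFR1 lies at -0.54 and -0.57. Both genes are low in H82, where the constant of 1 understates changes.

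Summed over 58 receptor tyrosine kinases, mRNA levels were 243 ± 4.48 in H82 controls, 215 ± 3.3 in H82 with ORY-1001, 488 ± 7.91 in H211 controls and 426 ± 3.96 in H211 with ORY-1001. The 10 receptors made up 14.9% ± 0.603, 18.4% ± 1.35, 24.0% ± 0.489 and 21.5% ± 0.711 of these sums. Other receptors of the class were as abundant. EPHA8, an ephrin receptor, was at 45.4 ± 0.813 in H82 controls, and EPHB3, another, at 61.9 ± 5.1 in H211 controls. STYK1 stood at 47.9 ± 2.38 and the pseudokinase PTK7 at 42.8 ± 1.17 in H211 controls, TYRO3 at 25.8 ± 2.05 in H82 controls, EPHA1 and EPHA4 at 25.3 ± 2.81 and 28.1 ± 1.45 in H211 controls, and RYK, a pseudokinase, between 20.5 and 26.8 in all groups. Of 48 other receptors 27 were tested. In H82 3 rose and 11 fell with ORY-1001 (median log2 difference -0.19), and in H211 2 rose and 4 fell (-0.07). For this and the lists that follow, the shares called over all tested genes were 43.0% in H82 (19.1% higher, 23.9% lower) and 18.6% in H211 (8.95% higher, 9.61% lower), with medians of -0.02 and -0.0021, and nothing particular to a list is read from its counts.

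Among those, the collagen receptor DDR2 fell 4.19-fold in H82, from 12.4 ± 0.99 to 2.96 ± 0.473 (log2 difference -1.76, adjusted p = 1.35e-06). EPHA4 fell 2.67-fold in H82 and 1.54-fold in H211 (adjusted p = 2.09e-06 and 0.0013). TYRO3 fell 1.93-fold and EPHB3 2.83-fold in H82 (2.17e-05 and 0.000266). In H211 EPHA1 fell 1.7-fold (0.000716) and EPHA3 rose from 3.51 ± 0.148 to 5.02 ± 0.193 (0.00398). ROR1, a low receptor that binds WNT5A, rose in H211 from 0.706 ± 0.082 to 1.75 ± 0.272 (0.0062). The EPHA1 and EPHA3 calls in H211 were lost with a constant of 0.1 (0.116 and 0.0865), and those of EPHA3 and ROR1 without the 4 libraries (0.207 and 0.107).

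**Figure D5:**
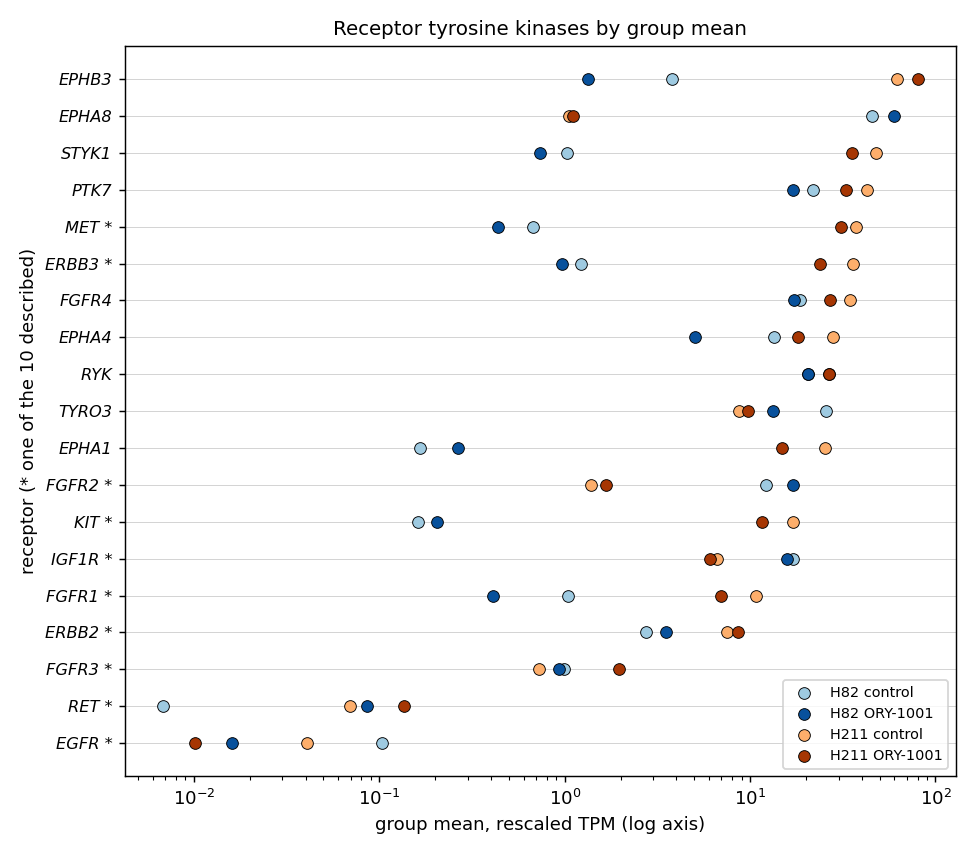
Group means of the 10 receptors (starred) and of the 9 other receptor tyrosine kinases with a group mean of at least 20, on a logarithmic x axis of rescaled TPM; each colour is a group of 3 libraries. EPHB3 and EPHA8 reach the highest means, at 80.2 and 59.7 with ORY-1001, and MET and ERBB3 are the highest of the 10.

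Of 37 ligand genes of the 10 receptors 11 were tested. In H82 1 rose (KITLG) and 2 fell with ORY-1001, and in H211 0 rose and 2 fell, with medians of -0.06 and -0.02, with 43.0% and 18.6% of all genes called. In H82 NRTN, which encodes the RET-pathway ligand neurturin, fell from 4.73 ± 0.554 to 2.37 ± 0.527 (log2 difference -0.77, adjusted p = 0.000528). It stood at 8.62 ± 1.18 and 9.98 ± 0.757 in H211 (0.335), and the effects differed by 0.97 (0.00205). HBEGF, an EGF-like ligand, fell in H82 from 1.01 ± 0.13 to 0.382 ± 0.15 (0.00137), a low level. It passed the filter through its H211 libraries, since in H82 only control replicate 1 reached 1. TGFA, another ligand of EGFR, fell in H211 from 5.27 ± 0.627 to 3.64 ± 0.676 (0.0336), a call lost in 12 alternatives (0.0504 to 0.36). ARTN, which encodes artemin, and FGF2 were 42.9-fold and 8.56-fold higher in H211 than in H82 controls, at 8.92 ± 1.04 and 12.5 ± 0.925, and NRG2, a neuregulin, was 6.24-fold higher in H82, at 11 ± 0.435. None of these 3 was called with the drug in either line (adjusted p = 0.0522 to 0.775).

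Of 16 co-receptors and binding proteins 8 were tested. In H82 0 rose and 1 fell, and in H211 3 rose and 1 fell, with medians of 0.04 and 0.25, with 43.0% and 18.6% of all genes called. Neuropilin 2, NRP2, fell in both lines, from 30.2 ± 1.9 to 18.7 ± 1.41 in H82 and from 52.5 ± 5.93 to 34.2 ± 3.2 in H211 (adjusted p = 0.000185 and 0.00116). Its relative NRP1 rose in H211 from 16.1 ± 1.49 to 25.9 ± 0.33 (0.00126) and was at 0.223 ± 0.0782 in H82 controls. The insulin-like growth factor binding protein IGFBP4 rose in H211 from 5.6 ± 0.328 to 9.88 ± 0.64 (0.00434). IGFBP2 was 42-fold higher in H82 than in H211 controls, at 584 ± 16.5 against 13.9 ± 3.19, and rose in H211 to 18.9 ± 2.19 (0.0324), a call lost in 7 alternatives. IGFBP3 went the other way, at 0.0535 ± 0.0304 in H82 and 10.7 ± 0.611 in H211 controls. FGFRL1, a decoy FGF receptor, and IGF2R were at 6.04 ± 0.548 and 9.4 ± 0.766 in H82 controls and 17.5 ± 1.55 and 11.1 ± 1.13 in H211 controls, with no drug call. Without the 4 libraries the calls of NRP2 (0.076) and IGFBP2 (0.812) in H211 were lost, and with a constant of 0.1 those of NRP1 (0.106) and IGFBP4 (0.0683).

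Inside the cell, of 28 tested adaptors 0 rose and 11 fell in H82 (median -0.20), and 2 rose and 4 fell in H211 (-0.07), with 43.0% and 18.6% of all genes called. GAB2, a docking protein, fell in both lines, from 11.4 ± 0.129 to 7.23 ± 0.462 in H82 and from 18.9 ± 1.49 to 12.7 ± 0.282 in H211 (adjusted p = 3.54e-05 and 0.000255). VAV2, an exchange factor, fell 1.83-fold, IRS2, a docking protein of the insulin receptor family, 2.05-fold and NCK2 1.44-fold in H82 (7.4e-06, 0.000129 and 0.000383). DOK5 and DOK6, related docking proteins, moved in opposite directions in H211. DOK5 fell from 5.12 ± 0.73 to 0.842 ± 0.0865 (log2 difference -1.73, adjusted p = 1.74e-06) and DOK6 rose from 0.858 ± 0.213 to 5.33 ± 1.67 (1.74, 6.94e-05). DOK5 passed the filter through its H211 controls alone, the group where it was high. It was not tested when any H211 control was left out. IRS1 rose in H211 from 4.55 ± 0.487 to 7.34 ± 0.352 and fell in H82 from 8.13 ± 0.577 to 6.31 ± 0.351, and the effects differed by 0.91 (0.000212).

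Of 20 tested inhibitors of receptor signalling, which remove, dephosphorylate or ubiquitinate receptors, 0 rose and 7 fell in H82 (median -0.13), and 1 rose and 2 fell in H211 (-0.09), with 43.0% and 18.6% of all genes called. In H82 these included SOCS6 and SOCS5 (adjusted p = 0.000275 and 0.00136), the phosphatase PTPRF, from 144 ± 1.46 to 108 ± 1.29 (0.00353), and RNF41, a ubiquitin ligase of ERBB3, from 27.9 ± 1.5 to 24.3 ± 0.893 (0.00897). The RNF41 call was lost with quantile normalization (0.0623) and without the 4 libraries (0.0646). In H211 the phosphatase PTPRJ fell from 5.69 ± 0.878 to 3.01 ± 0.359 (0.00128) and LRIG3 rose from 3.42 ± 0.0631 to 6.81 ± 0.515 (0.00166). LRIG2 fell in H211 from 2.52 ± 0.312 to 1.71 ± 0.126 (0.0122). The LRIG2 call was lost with H211 fitted alone (0.0649) and without H211 control replicate 1 (0.054). All 3 calls in H211 were lost without the 4 libraries (0.109, 0.159 and 0.206).

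In the PI3K-AKT list 2 of 18 tested genes rose and 8 fell in H82 (median -0.26), and 1 rose and 2 fell in H211 (-0.01), with 43.0% and 18.6% of all genes called. INPPL1, the lipid phosphatase SHIP2, fell in H82 from 21.2 ± 1.2 to 9.17 ± 1.34 (log2 difference -1.13, adjusted p = 1.57e-05) and in H211 from 69.9 ± 10.2 to 50.4 ± 3.8 (0.0171). The catalytic subunits PIK3CB and PIK3CA fell 1.35-fold and 1.53-fold in H82 and the regulatory subunit PIK3R3 rose 1.54-fold (0.000347, 0.00493 and 0.000883). TSC1, which restrains mTORC1, rose 2.1-fold in H211, from 4.94 ± 0.58 to 10.4 ± 1.15 (9.78e-05). RICTOR, of mTORC2, fell 1.2-fold in H211 (0.0339). The INPPL1 and RICTOR calls in H211 were lost in 4 and 8 alternatives.

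In the RAS-MAPK list 2 of 15 tested genes rose and 7 fell in H82 (median -0.20), and 2 rose and 1 fell in H211 (-0.13), with 43.0% and 18.6% of all genes called. The RAS-related GTPase RRAS fell 4.01-fold in H82, from 7.12 ± 0.42 to 1.78 ± 0.484 (adjusted p = 4.37e-06). The kinases MAP2K2 and MAPK3 fell 1.3-fold and 1.43-fold in H82 (3.76e-05 and 0.000134), and HRAS rose 1.37-fold (4.5e-05). RRAS2 and HRAS rose in H211 by 0.23 and 0.17 on the log2 scale (0.0326 and 0.0386), calls lost in 9 and 12 alternatives.

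Genes that ERK signalling induces, several of which restrain it, included calls in both directions. In H82 3 of 12 tested rose and 0 fell (median -0.04), and in H211 4 rose and 3 fell (-0.09), with 43.0% and 18.6% of all genes called. SPRY1, a feedback inhibitor, rose in H82 from 6.37 ± 0.357 to 10.5 ± 0.204 and fell in H211 from 14.6 ± 1.02 to 12.2 ± 0.74, a difference of -0.89 between the effects (adjusted p = 6.29e-05). DUSP5, an ERK phosphatase, rose 1.8-fold in H82 (0.00689, and 0.108 with a constant of 0.1), and IER3 1.34-fold (0.0195, a call lost in 4 alternatives). In H211 the immediate early genes EGR1 and FOS rose, FOS from 10.3 ± 6.13 to 98.8 ± 5.14 (1.08e-05). The ETS factors ETV1 and ETV4 parted, with ETV1 rising from 2.67 ± 0.254 to 6.8 ± 1.26 (0.000186) and ETV4 falling from 4.04 ± 0.694 to 1.01 ± 0.354 (0.000252).

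For each tested receptor the genes with the most similar profile over the 12 libraries were found by the root mean square difference of centred log2 values. This is a description only, since the profiles share libraries and are dominated by the difference between the lines. The nearest to KIT were AL035661.1 (0.0837) and RELN, which encodes reelin (0.0989). RELN stood at 0.19, 0.301, 18.2 and 12.6 in the H82 control, H82 treated, H211 control and H211 treated groups. The nearest to FGFR1 were KAT2B (0.167) and PCDHB4 (0.172), to FGFR2 ZNF382 (0.134) and LINC00891 (0.146), and to FGFR3 PDLIM5 (0.193) and TRPS1 (0.238). The nearest to ERBB2 were SOCS1 (0.135) and NQO2 (0.14), to ERBB3 ANXA4 (0.214) and MPZL2 (0.215), to MET FAM83H (0.159) and IGHV4-59 (0.162), and to IGF1R NR6A1 (0.143) and WDR48 (0.143).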

How the data were processed

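The members and gene lists were chosen with earlier results of these data known. Messenger RNA of 12 libraries was analysed, and groups and replicate numbers came from the sample descriptions. Oligo(dT) beads, the NEBNext Ultra II kit, paired-end sequencing and bcl2fastq 2.17 were used, per the labels' protocols. The submitters' processing notes name Salmon 1.1.0, sleuth 0.30.0, STAR 2.5.2b, Subread 1.5.2 with featureCounts, Trimmomatic 0.36, DESeq2, R 4.0.4 and the hg38 build, without roles or order; for annotation and strand setting the sources used here give nothing.

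The authors' signal is a TPM whose columns sum to 967415 to 1111988, so some rescaling between libraries was applied. Tests planned for TPM were used unchanged. Counts were not analysed here, so depth is unknown and only the spread between libraries gives precision. Mitochondrial genes held 5.20% to 13.5% of the totals.

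Genes at 1 or more in at least 3 libraries (15456) were fitted as log2(value + 1) with 4 group means over all 12 libraries in limma 3.58.1 with R 4.3.3 (eBayes with trend). P-values were two-sided and adjusted by Benjamini-Hochberg over all tested genes in each of 5 comparisons. The fit was tested on simulated data.

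Named genes were the 10 receptors, up to 4 called genes per list and line by smallest p, ligands and co-receptors with a group mean of at least 5, other receptors with a mean of at least 20, and the 2 nearest profiles per receptor. A few others (INSR, GRB7, the genes overlapping FGFR1 and ERBB2) were added after their values were seen. A gene that this rule selects is not reported here. Alternatives changed the constant, filter, scaling, variance prior, library weights, samples in the fit and replicate block, and left out libraries.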

Additional observations from a re-analysis of the deposited data

Results flagged for a closer look

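The effect of ORY-1001 on KIT differed between the lines by -0.58 on the log2 scale (H211 minus H82, adjusted p = 0.00247 from limma's interaction contrast), with KIT lower in all 3 treated H211 libraries than in all 3 controls and overlapping in H82. Over 25 alternatives the difference ran from -0.79 to -0.43, with adjusted p from 0.000452 to 0.0475. H82 held KIT at no more than 0.223 in any library, so with a constant of 1 the difference mostly restates the H211 fall of -0.53.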

How the results depend on the processing

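The H82 count of 2 called receptors became 1 with a constant of 5, and was 1 to 2 with 1 library left out. With H82 fitted alone it was 1 of 4 tested receptors, since FGFR1 did not pass the filter there. The H211 count of 3 became 1 with a constant of 0.1 and 0 without the 4 libraries, and was 2 to 3 with 1 library left out. The count of 1 for the difference between the lines became 3 with a constant of 5, when ERBB3 (-0.45, adjusted p = 0.0152) and FGFR2 (-0.31, 0.0479) joined KIT. It became 2 without the 4 libraries, when FGFR3 joined (1.16, 0.0324), and was 1 to 2 with 1 library left out, FGFR3 joining without H211 with ORY-1001 replicate 3 (1.06, 0.00454). Over all genes the fit without the 4 libraries called 559 in H211 and 2899 for the difference, against 2868 and 4956; fewer libraries enter it.

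Values that changed sign were not called. Without the 4 libraries IGF1R in H211 was 0.20, FGFR2 in H211 -0.12, and the difference between the lines 0.0116 for MET, 0.16 for FGFR1 and 0.25 for IGF1R. With constants of 0.1 and 0.5 that difference was 0.15 and 0.013 for MET and 0.58 and 0.17 for FGFR1. With 1 library left out, MET in H82 ran from -0.32 to 0.0085, IGF1R in H82 from -0.23 to 0.0028, FGFR3 in H82 from -0.12 to 0.0153 and IGF1R in H211 from -0.29 to 0.0028. The difference between the lines ran from -0.26 to 0.0635 for MET, -0.19 to 0.0238 for ERBB2, -0.13 to 0.0427 for FGFR1 and -0.20 to 0.12 for IGF1R. The cause of these changes was not tested.

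Same-numbered libraries did not deviate together (correlations -0.0805 to 0.0449), so the numbers were not taken as pairs. With the replicate block, 2 receptors were called in H82, 3 in H211 and 1 for the difference, with 6429, 2497 and 4701 genes in all. The block ended the calls of FGFR3 between the treated lines (0.0581) and, in H211, of TGFA (0.062), RICTOR (0.061), RRAS2 (0.062) and HRAS (0.0682), and no other call that was followed.

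Limits are the 3 libraries per group, 1 line per background, unknown depth, blood cell transcripts that differed within groups, and shared exons on opposite strands.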
